A study of Drosophila melanogaster with 20 samples.

Results

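*B-H1* and *B-H2* are the Bar homeobox genes of *Drosophila*, and their RNA was followed across 8 fly lines in which the proneural factor Atonal (Ato) or its effector Senseless (Sens) was gained or Ato was lost. Every probe set whose annotation names only one of these genes was taken, which gave 1 probe set for *B-H1* (1636203_at) and 1 for *B-H2* (1640139_at), 2 of the 18769 tested and 2 of the 11982 genes with a probe set of their own. RNA of eye-antennal imaginal discs, the larval tissue that makes the eye, the antenna and most of the head, was hybridized to 20 Affymetrix Drosophila 2.0 arrays.

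The Bar genes encode closely related homeodomain transcription factors that lie next to each other on the X chromosome and are largely redundant. In the developing eye, the R8 photoreceptor is founded by Ato in each ommatidium and then recruits the other photoreceptors, and the Bar proteins mark and are needed in the outer pair R1 and R6, which join in the second wave of recruitment. They are also made in undifferentiated cells of the basal retina, where they hold down *ato* behind the furrow, and in the distal segments of the antenna.

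All larvae were dissected at the third instar, raised at 18 °C and shifted to 28 °C for 24 h before dissection. The 4 control lines were the driver Gal4/7 without a transgene to drive (its domain is not given in the sources used here), the driver atoGal4 (NP6558), named for *ato*, UASato without a driver, and the wild type cantonS, with 2 arrays each. The gain-of-function (GOF) lines were Gal4/7 x UASato and atoGal4 x UASato for Ato, together called Ato GOF, and atoGal4 x UASsens for Sens, with 3 arrays each. The loss-of-function line ato-/- came from a stock with the allele ato1 over a heat-inducible *hid* chromosome, which kills its carriers on heat shock. The authors describe the discs profiled as ato-/-, and the line had 3 arrays. It was the only line given repeated heat shocks, so that heat shock and loss of Ato cannot be told apart in it, and no array of UASsens without a driver was among the controls. Repeats were labelled biological, and the number of larvae behind each is not given in the sources used here.

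The targeted genes were high in the GOF lines. *ato* lay between 11.30 and 12.61 in the 6 Ato GOF arrays and between 9.27 and 10.01 in the 8 controls, as log2 values of the Robust Multi-array Average (RMA), the scale of every level below. *sens* lay between 11.68 and 12.18 in atoGal4 x UASsens against 7.98 to 8.70 in the controls. The *ato* RNA of ato-/- (9.99 to 10.35) does not check its label, since ato1 is a mutant of the coding sequence. Replicates 1 and 2 of atoGal4 x UASsens stood apart by their likeness: the SD of their difference over probe sets was 0.149, against 0.325 to 0.759 for every other pair of replicates, so results on this line are also given with these arrays averaged. The 5 salivary glue genes (*Sgs3*, *Sgs4*, *Sgs5*, *Sgs7* and *Sgs8*), which disc cells do not make, varied widely, from a mean of 5.49 to 14.34, within lines as well as between them.

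The Bar genes were highest in the control lines and lowest in Gal4/7 x UASato and ato-/-, so that gain of Ato with one driver and loss of Ato both went with low Bar RNA. *B-H1* read 9.78 and 9.84 in Gal4/7, 9.53 and 9.43 in atoGal4, 10.02 and 10.02 in UASato, and 9.59 and 9.81 in cantonS. It read 8.66, 8.42 and 8.54 in Gal4/7 x UASato, and 8.47, 8.52 and 8.81 in ato-/-. It read 9.18, 9.05 and 9.65 in atoGal4 x UASato, and 9.36, 9.30 and 9.24 in atoGal4 x UASsens. The arrays of Gal4/7 x UASato and ato-/- were thus the 6 lowest of the 20, those of atoGal4 x UASsens lay just under the lowest control array, and 1 of the 3 atoGal4 x UASato arrays lay among the controls.

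*B-H2* read 10.06 and 9.98 in Gal4/7, 9.84 and 10.26 in atoGal4, 10.03 and 10.30 in UASato, and 10.06 and 10.33 in cantonS. It read 8.75, 8.63 and 8.51 in Gal4/7 x UASato, and 8.55, 8.72 and 8.94 in ato-/-. It read 9.61, 9.43 and 9.77 in atoGal4 x UASato, and 9.53, 9.56 and 9.68 in atoGal4 x UASsens. No perturbed array reached the lowest control, at 9.84, and the arrays again fell into a low pair of lines, an intermediate pair and the controls.

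**Figure D1:**
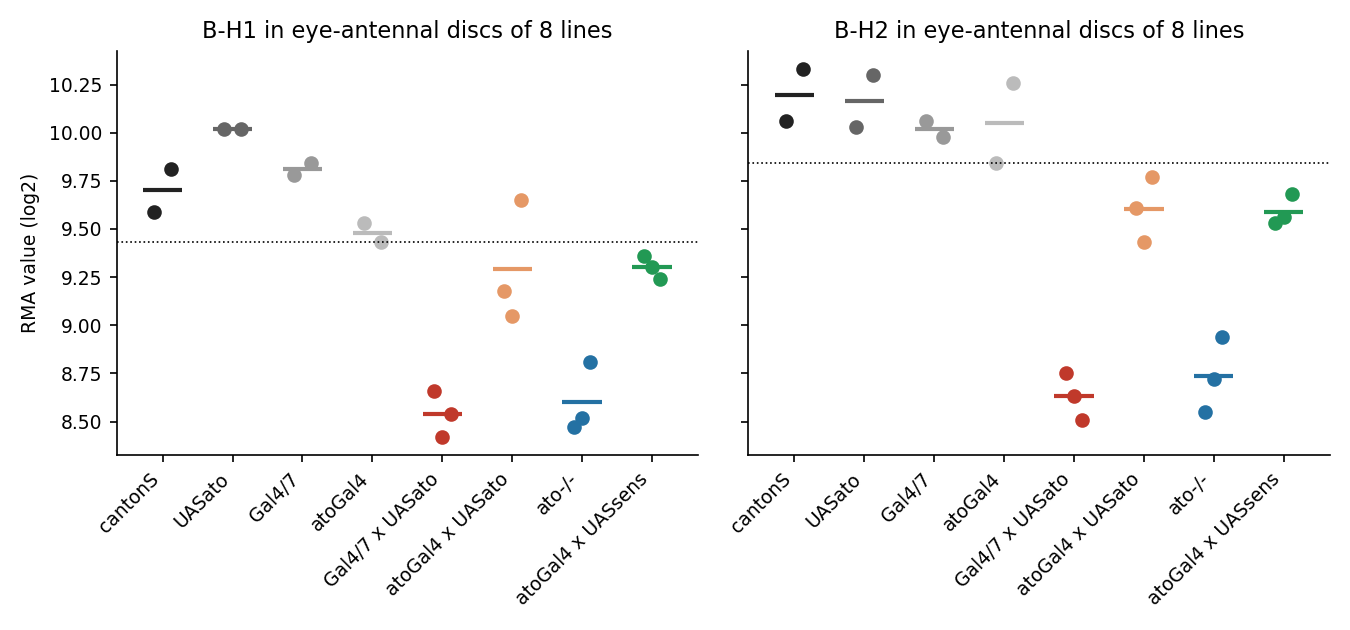
Each point is 1 array, placed by its RMA value (log2, vertical axis) in its line (horizontal axis), for *B-H1* on the left and *B-H2* on the right; short bars are line means and the dotted line is the lowest of the 8 control arrays (9.43 and 9.84). Gal4/7 x UASato and ato-/- sit between 8.42 and 8.94 for both genes, and 1 array of atoGal4 x UASato (9.65) lies above the dotted line for *B-H1*.

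By line means, *B-H1* ran in the order UASato, Gal4/7, cantonS, atoGal4, atoGal4 x UASsens, atoGal4 x UASato, ato-/- and Gal4/7 x UASato. The arrays of 3 pairs of neighbours in that order overlapped: Gal4/7 with cantonS, atoGal4 x UASsens with atoGal4 x UASato, and ato-/- with Gal4/7 x UASato. *B-H2* ran from cantonS through UASato, atoGal4 and Gal4/7 to atoGal4 x UASato, atoGal4 x UASsens, ato-/- and Gal4/7 x UASato. Only 2 steps of that order were free of overlap, the step of 0.42 from Gal4/7 to atoGal4 x UASato and the step of 0.85 from atoGal4 x UASsens to ato-/-. The controls as a whole held *B-H1* at 9.75 ± 0.22 (SD, n = 8) and *B-H2* at 10.11 ± 0.17 (SD, n = 8). Within the controls, cantonS differed from the other 3 lines by -0.07 for *B-H1* (95% CI -0.48 to 0.34, limma adjusted p = 0.93) and by 0.11 for *B-H2* (-0.20 to 0.43, adjusted p = 0.861), neither called, in a comparison that called 0.165% of probe sets.

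Against the 8 controls, Gal4/7 x UASato had 2.31-fold less *B-H1* and 2.78-fold less *B-H2*. *B-H1* averaged 8.54 ± 0.12 (SD, n = 3) and fell by 1.21 on the log2 scale (SE 0.13, 95% CI -1.50 to -0.92, limma adjusted p = 0.000513). *B-H2* averaged 8.63 ± 0.12 (SD, n = 3) and fell by 1.48 (SE 0.11, 95% CI -1.71 to -1.24, adjusted p = 4.3e-05). Calls were made at a Benjamini-Hochberg adjusted p under 0.05 over all probe sets, and both Bar genes were called lower where 0.41% of probe sets were called lower and 1.63% higher. All 3 arrays lay below every control array for both genes, which held for 1.34% of probe sets. In bulk tissue, fewer Bar-expressing cells and less Bar RNA per cell cannot be told apart.

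With the driver atoGal4, the same transgene left both Bar genes nearer to the controls. *B-H1* averaged 9.29 ± 0.31 (SD, n = 3), -0.46 from the controls (SE 0.15, 95% CI -0.80 to -0.12, adjusted p = 0.481). *B-H2* averaged 9.60 ± 0.17 (SD, n = 3), -0.50 from the controls (SE 0.11, 95% CI -0.75 to -0.25, adjusted p = 0.213). Neither was called, in a comparison that called 0.0107% of probe sets lower and 0.0533% higher. All 3 arrays lay below every control for *B-H2* and 2 of 3 did for *B-H1*, where 1.08% of probe sets had all 3 below. The driver line atoGal4 had the lowest *B-H1* mean of the control lines (9.48). Its *B-H1* arrays (9.43 and 9.53) lay within the range of atoGal4 x UASato (9.05 to 9.65). Its *B-H2* arrays (9.84 and 10.26) lay above that line's range (9.43 to 9.77). *ato* itself was also lower with this driver, 11.30 to 11.62 against 12.22 to 12.61 with Gal4/7. Taken as changes from each driver line, the drivers differed by 0.92 for *ato* (limma adjusted p = 0.383), not called. The part of the *ato* level in the Bar levels was not tested.

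The drivers were set against each other as the change of Gal4/7 x UASato from Gal4/7 minus that of atoGal4 x UASato from atoGal4. This difference was -1.09 for *B-H1* (SE 0.23, 95% CI -1.62 to -0.55, adjusted p = 0.199) and -0.95 for *B-H2* (SE 0.21, -1.43 to -0.47, adjusted p = 0.213). Neither passed the adjustment, with 0.0746% of probe sets called. With the spread taken from 1 fit of all 20 arrays, the *B-H1* difference was -1.09 with an adjusted p of 0.0373. *B-H1* spanned 8.42 to 8.66 in Gal4/7 x UASato and 9.05 to 9.65 in atoGal4 x UASato, and *B-H2* 8.51 to 8.75 and 9.43 to 9.77.

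With both drivers joined as Ato GOF, *B-H1* was 1.78-fold and *B-H2* 1.99-fold lower than in the controls. *B-H1* averaged 8.92 ± 0.46 (SD, n = 6) and fell by 0.83 (SE 0.17, 95% CI -1.21 to -0.46, adjusted p = 0.0358), with 5 of 6 arrays below every control. *B-H2* averaged 9.12 ± 0.55 (SD, n = 6) and fell by 0.99 (SE 0.19, 95% CI -1.40 to -0.58, adjusted p = 0.0267), with 6 of 6 arrays below every control. This comparison called 0.218% of probe sets lower and 0.783% higher, and 0.176% had every GOF array below every control. The SDs are those of a group made of 2 lines at different levels, and the *B-H1* call ended on leaving out any 1 of 12 of the 14 arrays (adjusted p of at most 0.106), the exceptions being atoGal4 replicate 2 and atoGal4 x UASato replicate 3. The *B-H2* call ended without Gal4/7 x UASato replicate 1 (-0.92), 2 (-0.89) or 3 (-0.87) or cantonS replicate 2 (-0.96), with adjusted p of at most 0.0753.

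Both Bar genes were about as low without Ato as in Gal4/7 x UASato. In ato-/-, *B-H1* averaged 8.60 ± 0.18 (SD, n = 3), 2.22-fold lower than in the controls (-1.15, SE 0.14, 95% CI -1.45 to -0.85, adjusted p = 0.000485). *B-H2* averaged 8.74 ± 0.20 (SD, n = 3), 2.58-fold lower (-1.37, SE 0.12, 95% CI -1.63 to -1.11, adjusted p = 5.08e-05). All 3 arrays lay below every control for both genes. The background was high here: 8.60% of probe sets were called lower and 5.22% higher, and 8.14% had every mutant array below every control. The controls of this comparison are shared with those above, and the values are set side by side only.

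Sens under atoGal4 went with intermediate Bar levels. *B-H1* averaged 9.30 ± 0.06 (SD, n = 3), -0.45 from the controls (SE 0.13, 95% CI -0.73 to -0.17, adjusted p = 0.0788), and was not called. *B-H2* averaged 9.59 ± 0.08 (SD, n = 3) and fell by 0.52 (SE 0.10, 95% CI -0.75 to -0.29, adjusted p = 0.0231), 1.43-fold lower. The comparison called 2.39% of probe sets lower and 1.28% higher, and all 3 arrays lay below every control for both genes, as for 5.10% of probe sets. With replicates 1 and 2 averaged to 1 sample, *B-H2* was -0.49 from the controls with an adjusted p of 0.126, and leaving out any 1 of the 3 Sens arrays ended the call too (-0.49, -0.50 and -0.56, adjusted p of 0.125, 0.118 and 0.0515). Against atoGal4 alone, the control that carries the same driver, *B-H1* was -0.18 (adjusted p = 0.479) and *B-H2* -0.46 (adjusted p = 0.252). Of the 11 fits with 1 array left out, *B-H1* passed only in that without atoGal4 replicate 2 (-0.50, adjusted p = 0.0454). The adjusted p of these fits ran up to 0.237.

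Sens and Ato under the same driver gave near-equal Bar levels. atoGal4 x UASsens minus atoGal4 x UASato was 0.01 for *B-H1* (SE 0.16, 95% CI -0.37 to 0.38, adjusted p = 0.992) and -0.01 for *B-H2* (SE 0.11, -0.27 to 0.24, adjusted p = 0.961), where 5.24% of probe sets were called. For *B-H1* the interval is wide enough to hold the -0.18 by which atoGal4 x UASsens differed from atoGal4, the control with the same driver.

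**Figure D2:**
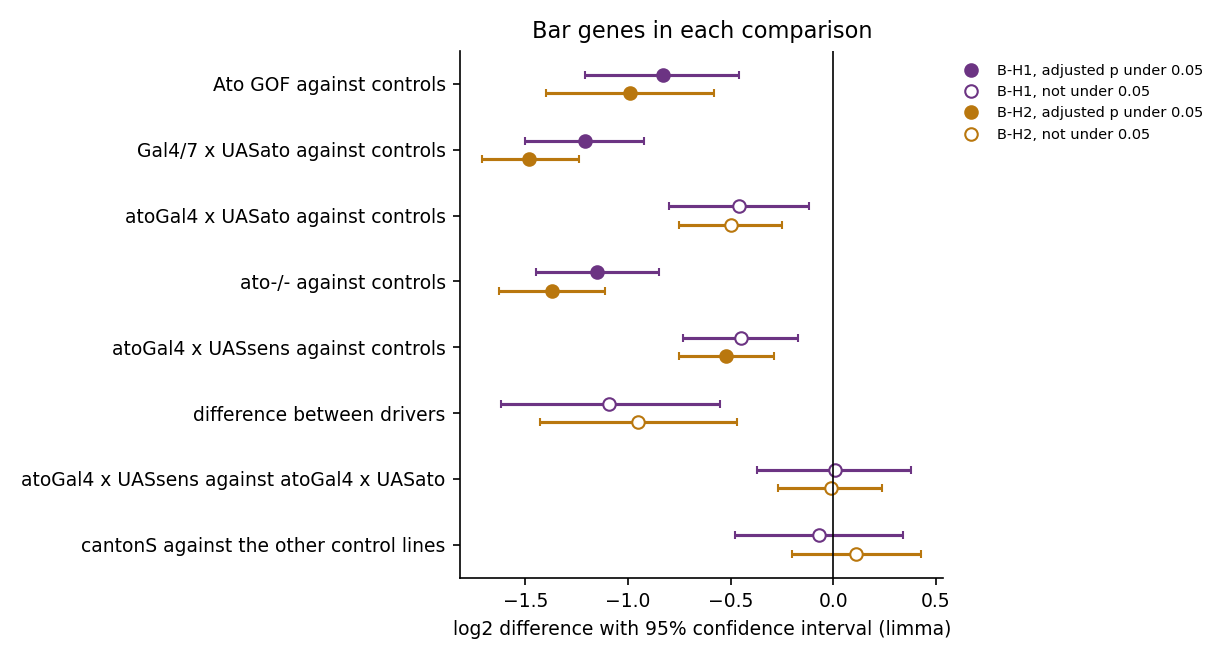
Points are log2 differences (horizontal axis) of *B-H1* and *B-H2* in 8 comparisons (vertical axis) with 95% confidence intervals from limma, filled where the adjusted p was under 0.05. The differences of Gal4/7 x UASato and ato-/- from the controls lie between -1.48 and -1.15, and those of atoGal4 x UASato and atoGal4 x UASsens between -0.52 and -0.45.

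The fitted decrease was the larger for *B-H2* in each of the 5 comparisons with controls, so the difference of the log2 values, *B-H1* minus *B-H2*, was taken per array. It was -0.35 on average in the controls, -0.20 in Ato GOF, -0.14 in ato-/- and -0.29 in atoGal4 x UASsens. By exact two-sided permutation tests, the shift from the controls was 0.16 for Ato GOF (p = 0.219), 0.22 for ato-/- (p = 0.133) and 0.06 for atoGal4 x UASsens (p = 0.739), where the smallest p possible was 0.000333 for the first and 0.00606 for the others. With 1 driver at a time, a comparison chosen after seeing the data, the shift was 0.27 for Gal4/7 x UASato (exact permutation p = 0.0848) and 0.04 for atoGal4 x UASato (p = 0.848). None of these passed 0.05 over all arrays, and the shift of ato-/- passed without UASato replicate 1 (0.27, exact permutation p = 0.0333). Among the 8 control arrays alone, the levels of *B-H1* and *B-H2* had a Pearson r of 0.19 (exact permutation p = 0.625) and a Spearman rho of 0.17 (p = 0.703), and r was 0.24 without the 2 arrays farthest from the median.

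Across all 20 arrays, the gene most like *B-H1* of 5990 genes at or above the median level (7.18) was *B-H2*, with a Pearson r of 0.950 over arrays and 0.966 over the 8 line means. These correlations are descriptions over arrays that share lines, and most of their spread is between lines. Next to *B-H1* came *flap* (0.932), *CG5653* (0.921), *lz* (0.907) and *sev* (0.875). Next to *B-H2* came *flap* (0.957), *B-H1* (0.950), *CG5653* (0.950), *CHKov2* (0.942) and *lz* (0.941). *lz* encodes the Runx factor Lozenge, which is needed for R1, R6, R7 and cone cell fates and upstream of Bar in R1 and R6, and *sev* encodes Sevenless, the receptor tyrosine kinase by which R7 reads the ligand Boss on R8. At the other end of the range, *CG3788* had r of -0.894 with *B-H1* and -0.813 with *B-H2*, and *rdgB*, a phosphatidylinositol transfer protein of photoreceptors, -0.854 and -0.842.

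These genes were picked for their likeness to Bar on these same arrays, so their being low in the same lines follows from the choice, and their values and p are a description. *lz* was likewise lowest in Gal4/7 x UASato and ato-/-, with larger differences. It read 7.04, 5.75 and 5.57 in Gal4/7 x UASato and 7.13, 7.02 and 6.89 in ato-/-, against 8.76 to 9.80 in the controls. The differences from the controls were -3.33 (adjusted p = 0.000164) and -2.44 (adjusted p = 1.31e-05) on the log2 scale, beside -1.21 and -1.15 for *B-H1*. *lz* was -0.54 from the controls in atoGal4 x UASato (adjusted p = 0.494) and -0.62 in atoGal4 x UASsens (adjusted p = 0.0838), and neither was called.

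*sev* was lower in Gal4/7 x UASato (-2.14, adjusted p = 0.000139) and in ato-/- (-2.49, adjusted p = 1.16e-05). It sat at the control level in atoGal4 x UASato, where its 3 arrays read 8.16, 8.04 and 8.61 against 7.67 to 8.61 in the controls. *CG5653* was lower in Gal4/7 x UASato (-2.77, adjusted p = 3.73e-05) and in ato-/- (-1.83, adjusted p = 0.000161), and so was *flap* (-1.38, adjusted p = 0.000426, and -1.10, adjusted p = 0.00123).

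**Figure D3:**
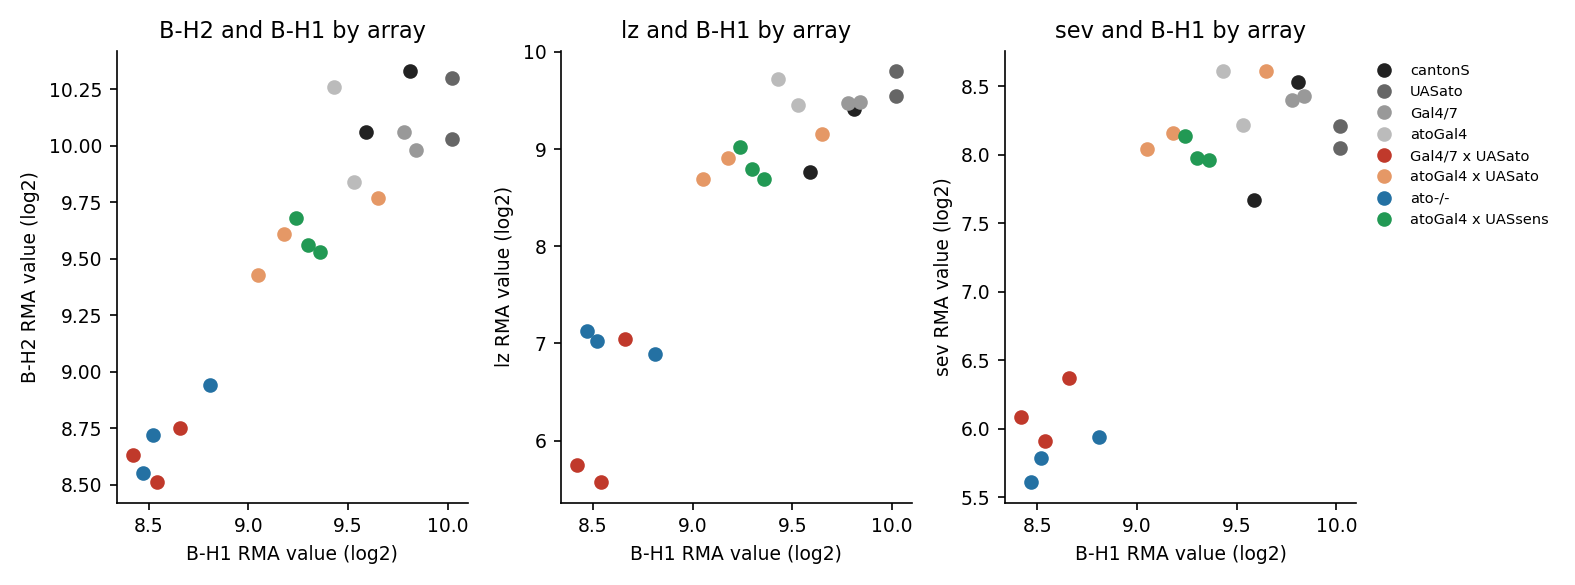
Each point is 1 array coloured by line, with its *B-H1* RMA value (log2) on the horizontal axis and that of *B-H2*, *lz* or *sev* (log2) on the vertical axis. Arrays of Gal4/7 x UASato and ato-/- form the low group in each panel, and atoGal4 x UASato lies among the controls for *sev* (8.04 to 8.61).

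Other photoreceptor genes were read beside Bar in the 2 lines where it was lowest. The 9 measured regulators of photoreceptor subtype were *ro*, *svp*, *lz*, *sev*, *salm*, *salr*, *pros*, *sv* and *gl*. Of these only *lz* and *sev* were called in Gal4/7 x UASato, both lower, where 0.41% of all probe sets were called lower. The median change in that line was -0.05 over the list and 0.01 over all genes. There *ro*, which represses *ato* and acts in R2 and R5, was at -0.05 (adjusted p = 0.952), and *svp*, which acts in R3 and R4 and in R1 and R6 beside Bar, at -0.05 (adjusted p = 0.96). In ato-/-, where 8.60% of all probe sets were called lower, 7 of the 9 were called lower and none higher. The median was -1.38 against -0.02 over all genes. The largest decreases were those of *gl* (-3.33, adjusted p = 4.51e-06), the zinc finger factor of all photoreceptors, and *ro* (-2.79, adjusted p = 3.11e-06). *svp* was at -0.14 in ato-/- (adjusted p = 0.702).

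Genes of R8, the cell that Ato founds, were read beside Bar in the same lines. Leaving aside *ato*, which is the transgene of Gal4/7 x UASato and was at 0.45 in ato-/- (adjusted p = 0.0833), 4 were measured. In Gal4/7 x UASato *sens*, *boss*, the ligand of Sevenless (2.56, adjusted p = 3.03e-05), and *neur* were higher and *rau* was at 0.25 (adjusted p = 0.464), where 1.63% of all probe sets were called higher. The authors count *sens* and *neur* among their Ato targets and list *boss* among genes raised in these Ato GOF arrays. Whether the higher values stand for more R8 cells was not tested. In ato-/-, where 8.60% of all probe sets were called lower, all 4 were lower, among them *boss* (-1.73, adjusted p = 1.82e-05). The ato-/- arrays read 6.86, 8.11 and 4.50 for *sens* (-1.92, adjusted p = 0.0398), with replicate 2 inside the control range of 7.98 to 8.70. Of 5 measured genes of neurons and the differentiating retina, 3 were higher in Gal4/7 x UASato, led by the photoreceptor adhesion protein gene *chp* (1.59, adjusted p = 0.00423), and 4 were lower in ato-/-. The pan-neuronal gene *elav* was at 0.29 (adjusted p = 0.412) in the first and -1.64 (adjusted p = 0.000111) in the second. Low Bar RNA thus stood beside neuronal RNA at or above control level in Gal4/7 x UASato, and beside lower neuronal RNA in ato-/-.

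**Figure D4:**
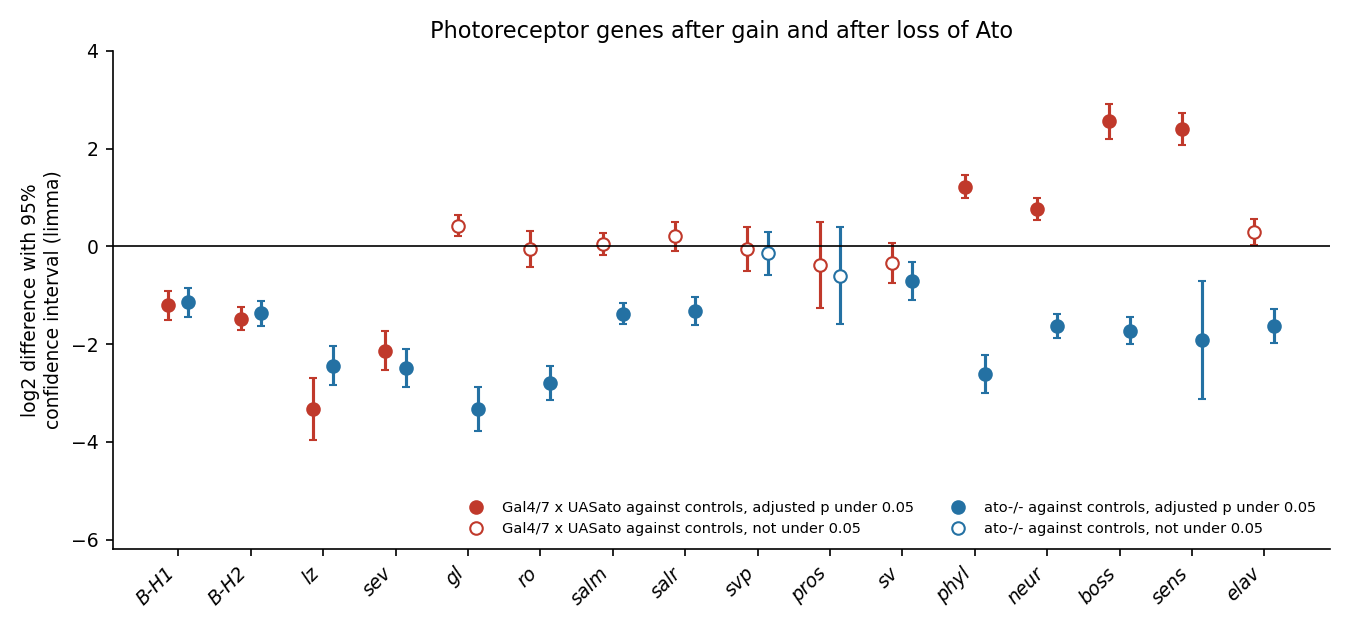
Points are log2 differences from the 8 controls (vertical axis) with 95% confidence intervals from limma, for the Bar genes, the 9 measured subtype regulators and 5 genes of R8 and neurons (horizontal axis), filled where the adjusted p was under 0.05. *B-H1*, *B-H2*, *lz* and *sev* were called lower in both lines. *ro*, *svp*, *pros* and *sv* also lie below 0 in both, without a call in Gal4/7 x UASato. *boss* is at 2.56 in Gal4/7 x UASato and -1.73 in ato-/-.

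Bar is induced in R1 and R6 downstream of EGF receptor signalling. Of 8 measured genes of the pathway and its photoreceptor effectors (*Egfr*, *spi*, *S*, *aos*, *aop*, *sty*, *phyl* and *sina*; *rho*, *pnt* and the Notch pathway genes *N* and *Dl* of the same list had no probe set of their own), 1 was lower in Gal4/7 x UASato, where 0.41% of all probe sets were called lower and 1.63% higher: *aos*, the secreted EGFR inhibitor that the pathway induces (-0.71, adjusted p = 0.000649), and 1 was higher: *phyl*, an adaptor for photoreceptor fate that is likewise induced (1.22, adjusted p = 0.000173). In ato-/-, where 8.60% of all probe sets were called lower, 6 of the 8 were lower and none higher, among them *aos* (-2.20, adjusted p = 7.13e-07) and *phyl* (-2.61, adjusted p = 1.06e-05). In atoGal4 x UASsens (2.39% of all probe sets called lower) none of the 8 was called, and 2 of the 9 subtype regulators were lower, *salr* (-0.70, adjusted p = 0.0245) and *gl* (-0.45, adjusted p = 0.0334). In atoGal4 x UASato (0.0533% called higher) none of the 9 regulators was called and 1 of the 8, *phyl*, was higher (0.81, adjusted p = 0.0377). The authors count *phyl* among their Ato targets, by a reporter assay, and the part of EGFR signalling in its levels was not tested.

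Bar also patterns the distal antenna, so 13 measured genes of the distal antenna and limb axis were read beside it. None was called in Gal4/7 x UASato, where 0.41% of all probe sets were called lower, so no call among 13 genes says little. The median there was -0.13 and *Dll*, the selector of distal appendages, was at -0.29 (adjusted p = 0.423). In ato-/- 4 were lower, *rn* (-1.05), *dan* (-0.99), *danr* (-0.99) and *bab2* (-0.61), with adjusted p of at most 0.0107. The median was -0.33, and 8.60% of all probe sets were called lower there. In atoGal4 x UASsens, where 2.39% of all probe sets were called lower, 1 was lower, *Dll* (-0.64, adjusted p = 0.0193). *dan* and *danr* are expressed in the eye as well as the antenna, and a share of the Bar signal from each part of the disc could not be assigned.

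The neighbours of the Bar genes on the X chromosome did not move with them as a group. In the RefSeq table no protein-coding gene lies between *B-H2* and *B-H1*. The 5 measured flanking genes were *CG5445*, *CG8661* and *Fim* on the *B-H2* side, and *CG8611* and *CG12994* on the *B-H1* side. None was called in Gal4/7 x UASato, Ato GOF, atoGal4 x UASato or atoGal4 x UASsens. At most 2.39% of all probe sets were called lower in any of these, so no call among 5 genes says little. The median change of the 5 was -0.04 in Gal4/7 x UASato and 0.08 in ato-/-. *Fim*, an actin-bundling fimbrin, was lower in ato-/- (-0.67, adjusted p = 0.0155), where 8.60% of all probe sets were called lower. It was at 0.46 in Gal4/7 x UASato (adjusted p = 0.302).

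RNA of other cell types differed between lines beside the Bar genes. In Gal4/7 x UASato, 3 of 6 glial genes were lower (*gcm*, *moody* and *loco*) and 2 of 5 hemocyte genes higher (*Hml* and *NimC1*), where 0.41% and 1.63% of all probe sets were called lower and higher, and none of 6 brain, 3 fat body, 4 muscle, 5 salivary gland and 3 tracheal genes was called. In ato-/-, where 8.60% of all probe sets were called lower, 4 of 6 glial, 2 of 6 brain, 1 of 5 hemocyte and 1 of 3 tracheal genes were lower and no gene of these 7 lists was higher. In atoGal4 x UASsens none of these lists had a call, where 2.39% and 1.28% of all probe sets were called lower and higher. No call in lists this short says little. The part of these cells in the Bar levels was not tested.

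The salivary glue genes showed the widest spread, and the median of their changes was -3.43 in Gal4/7 x UASato without a call. Gal4/7 x UASato replicate 1 held as much glue RNA (14.20) as the richest control (14.18), with *B-H1* at 8.66 and *B-H2* at 8.75. The 2 controls with the least glue RNA, Gal4/7 replicate 2 (6.79) and atoGal4 replicate 2 (5.96), had *B-H1* at 9.84 and 9.43 and *B-H2* at 9.98 and 10.26. Gal4/7 x UASato replicates 2 and 3 held little glue RNA (5.78 and 5.49), with *B-H1* at 8.42 and 8.54. Fat body RNA was lowest in Gal4/7 x UASato replicate 2 (8.35, against 12.01 to 14.37 in the other arrays), where *B-H1* was 8.42 against 8.66 and 8.54 in the other arrays of that line. The part of salivary gland or fat body RNA in the Bar levels was not tested.

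**Figure D5:**
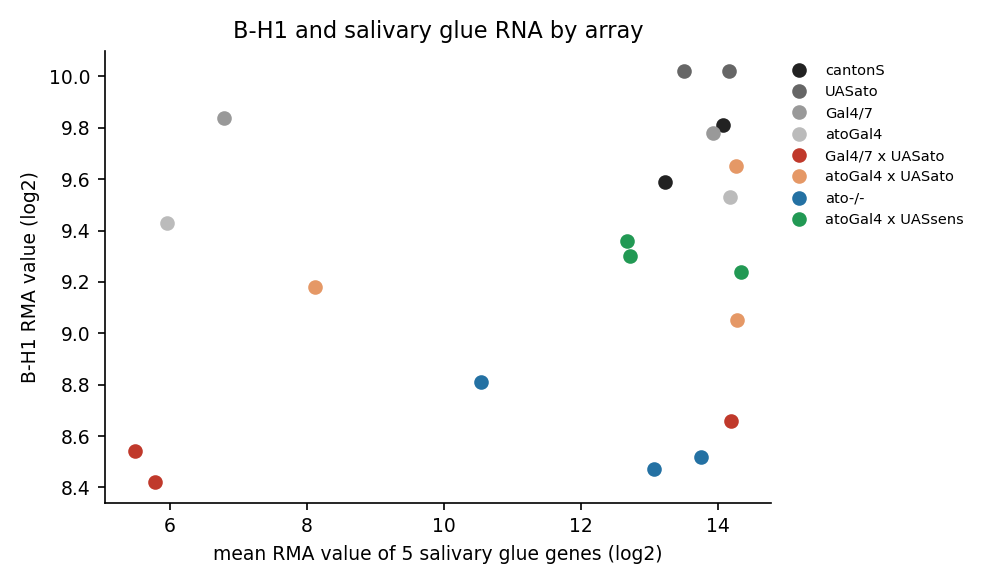
Each point is 1 array coloured by line, with the mean RMA value of 5 salivary glue genes (log2, horizontal axis) and the *B-H1* RMA value (log2, vertical axis). Gal4/7 x UASato is low in *B-H1* (8.42 to 8.66) at glue levels from 5.49 to 14.20, and the 2 control arrays with least glue RNA read 9.84 and 9.43.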

How the data were processed

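Total RNA of 20 samples was labelled and hybridized to 1 array each. The values are those the authors deposited, on a log2 scale, from RMA: background correction, quantile normalization between arrays and 1 summary per probe set (version and genome build not given in the sources used here). Quantile normalization sets every array to one distribution, so a value is relative to the other probe sets. Array medians were 5.38 to 5.51, and the number of arrays limits the precision.

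Of 18952 probe sets, 183 Affymetrix controls were left out. Of the 18769 tested, 13647 name 1 gene, 402 several and 4720 none. Where several probe sets name only 1 gene, the one with the highest mean stood for it. Each comparison was fitted on its own arrays with lmFit and eBayes (limma 3.58.1, R 4.3.3), without covariates, and adjusted by Benjamini-Hochberg over all probe sets. Single values were tested by exact permutation (scipy 1.17.1). The code was tested on simulated data. The labels' replicate field conflicts with the titles for the second controls, and titles were followed. The sources do not name the controls for ato-/- and atoGal4 x UASsens, and all 8 were used.

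Members, comparisons and the 12 gene lists were chosen with earlier results of these data known. Named genes are the Bar genes, their chromosomal neighbours (RefSeq table, names and order only), for each Bar gene the 5 genes most and the 2 least correlated, and up to 4 members per list and comparison with the largest called change. *ro*, *svp*, *elav* and *Dll* in Gal4/7 x UASato, *svp* in ato-/- and the remaining list members in the plot were added after their values were seen. Alternatives were other scalings, control sets, blocks, variance models, a level filter and each array left out.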

Additional observations from a re-analysis of the deposited data

How the results depend on the processing

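The lower Bar RNA of Gal4/7 x UASato and of ato-/- kept its direction and its call under all 20 alternatives tried for each gene and line, with adjusted p of at most 0.0298. Over 19 results and 349 alternatives, 305 kept direction and side of the threshold. For Ato GOF against controls, the call was lost with the nearest controls only (*B-H1* -0.85, adjusted p = 0.0971; *B-H2* -0.96, adjusted p = 0.0866) and with line as a random block for *B-H1* (-0.83, adjusted p = 0.0536), and leaving out single arrays gave -0.98 to -0.74 for *B-H1* and -1.12 to -0.87 for *B-H2*. With the replicate number as a block, Ato GOF lost its call for *B-H1* (-0.92, adjusted p = 0.0864) and *B-H2* (-1.0, adjusted p = 0.0983). Deviations from line means had a mean r of 0.06 over 62 pairs of the same number in other lines, with 27 over 0.1. Over 112 pairs of other numbers the mean r was -0.03, also with 27 over 0.1. Whether the number stands for a shared batch was not tested. The replicate block changed no other call. For atoGal4 x UASsens against controls, *B-H1* passed in 1 fit of all 20 arrays (-0.45, adjusted p = 0.0186) and with array weights (-0.44, adjusted p = 0.00506), and ranged from -0.50 to -0.41 over single arrays left out. *B-H2* lost its call against atoGal4 alone (-0.46) and with replicates 1 and 2 averaged (-0.49, chosen after seeing the data), and ranged from -0.56 to -0.49 over single arrays left out. The difference between drivers passed for *B-H1* in 1 fit of all 20 arrays (-1.09). Values near 0 changed sign. atoGal4 x UASsens minus atoGal4 x UASato was -0.01 for *B-H1* with arrays centred on their median and -0.01 with replicates 1 and 2 averaged, and 0.02 for *B-H2* with quantiles normalized again and 0.01 with those replicates averaged, and over single arrays left out it ran from -0.12 to 0.18 and from -0.10 to 0.07. cantonS minus the other controls ran from -0.19 to 0.04 for *B-H1* and from -0.02 to 0.25 for *B-H2* over single arrays left out. The shift of *B-H1* minus *B-H2* ran from 0.15 to 0.27 for ato-/-, passing only without UASato replicate 1 (exact permutation p = 0.0333), and from 0.00 to 0.14 for atoGal4 x UASsens, where it reached 0.00 without atoGal4 replicate 2. The causes were not tested. Another probe set could not be tried, since each Bar gene has 1.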
